A study of Mus musculus with 24 samples.

Results

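The 10 genes described here are the feedback inhibitors of ERK signalling Spry1, Spry2, Spry4, Dusp4, Dusp6, Spred1, Spred2 and Spred3 together with the Ets transcription factors Etv4 and Etv5. They were chosen by name, as a pathway list, and all 10 were found among the 35742 genes counted. All 10 passed the filter on low values in every comparison. The study sequenced total RNA of the mouse embryonic stem cell line V6.5 with a degron on BRD2, a bromodomain protein that binds acetylated chromatin. A degron is a tag by which auxin directs a protein to destruction. Cells were taken as stem cells (mES) or as embryoid bodies, aggregates that start to differentiate, after 2, 3 or 4 days (EBd2, EBd3 and EBd4). Each stage had 3 libraries with doxycycline alone (Dox) and 3 with doxycycline followed by the auxin indole-3-acetic acid (IAA), 24 libraries in 8 groups. Doxycycline, at 1 µg/ml for 18 h, was given to every group, so no group lacked it, and IAA was given at 500 µM for 24 h. The labels name no clone, and do not say when in embryoid body culture IAA was added.

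ERK is the last kinase of the RAS, RAF and MEK relay that carries the FGF signal into the cell, and it switches on the genes of its own inhibitors. Sprouty proteins (Spry) and Spred proteins act upstream, on the step from receptor to RAS and RAF, whereas the DUSP4 and DUSP6 phosphatases remove the activating phosphates from ERK itself. Etv4 and Etv5 encode Ets factors of the PEA3 group that are induced by FGF and ERK signalling and turn on further genes. In mouse stem cells FGF4 is the main autocrine ligand of this relay, and ERK activity is needed to leave the naive state. The stem cell medium (2i) held 1 µM PD0325901, an inhibitor of MEK, and 3 µM CHIR99021, an inhibitor of GSK3, with the cytokine LIF. The embryoid body medium is described only as lacking LIF. Medium and stage therefore cannot be told apart in any comparison of mES with embryoid bodies.

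Libraries held between 7819522 and 15732767 reads assigned to genes. In EBd4 the IAA libraries were deeper, at 9007143 to 10598075 reads against 7941180 to 8120480 with Dox. Nothing states that the libraries of a group came from separate cultures, so p-values measure only the spread between these samples. The RNA of Brd2, the target of the degron, was higher with IAA at every stage, by log2 0.87 in mES, 0.65 in EBd2, 0.38 in EBd3 and 0.48 in EBd4 (adjusted p at most 0.000226). These RNA values leave the level of BRD2 protein unmeasured. Naive and epiblast marker sums separated mES from EBd2 in the Dox libraries. Summed naive markers ran from 5.145e+04 to 5.317e+04 normalised counts in mES Dox and from 1.191e+04 to 1.269e+04 in EBd2 Dox. They did not order the embryoid body days, at 1.062e+04 to 1.108e+04 in EBd3 Dox and 1.159e+04 to 1.244e+04 in EBd4 Dox. Summed formative or primed epiblast markers ran from 1223 to 1352 in mES Dox, with Fgf5 at 0, and from 2.357e+04 to 2.526e+04 in EBd2 Dox. Fibroblast markers summed to 46.04 to 50.18 in mES Dox, with Dcn, Lum and Postn at 0. They summed to 280.2 to 344.3 in EBd3 Dox and 229.2 to 401.6 in EBd4 Dox. All RNA came from whole cultures, in which fewer cells of a type and less RNA per cell cannot be told apart.

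Promoter sequence was matched for 7 of the 10 genes, as 8 windows of 250 bases upstream of a RefSeq start (GRCm38.p6). Those of Dusp6 (chr10:99262981-99263230, plus strand) and Spred1 (chr2:117120821-117121070, plus strand) are shown because they hold CGGAAG, a form of the Ets factor site, which stands in capitals (as CTTCCG where it lies on the other strand). Those of Spry1 (chr3:37639697-37639946, plus strand) and Spry2 (chr14:105896820-105897069, minus strand) are shown because these relatives moved in opposite directions in EBd4.
Dusp6: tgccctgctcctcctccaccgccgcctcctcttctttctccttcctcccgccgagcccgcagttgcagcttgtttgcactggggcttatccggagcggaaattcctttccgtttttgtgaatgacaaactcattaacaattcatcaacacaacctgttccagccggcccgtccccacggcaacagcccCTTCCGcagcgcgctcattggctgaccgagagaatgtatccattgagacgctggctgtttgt
Spred1: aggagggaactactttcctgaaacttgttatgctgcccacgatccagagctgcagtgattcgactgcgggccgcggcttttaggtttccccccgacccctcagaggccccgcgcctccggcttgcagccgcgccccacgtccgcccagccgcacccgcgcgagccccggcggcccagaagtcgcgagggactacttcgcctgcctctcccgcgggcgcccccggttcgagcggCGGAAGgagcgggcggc
Spry1: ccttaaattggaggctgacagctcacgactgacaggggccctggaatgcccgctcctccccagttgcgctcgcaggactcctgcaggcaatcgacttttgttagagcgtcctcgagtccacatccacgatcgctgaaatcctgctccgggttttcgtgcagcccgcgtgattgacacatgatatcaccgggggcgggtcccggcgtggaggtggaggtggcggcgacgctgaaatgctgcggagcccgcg
Spry2: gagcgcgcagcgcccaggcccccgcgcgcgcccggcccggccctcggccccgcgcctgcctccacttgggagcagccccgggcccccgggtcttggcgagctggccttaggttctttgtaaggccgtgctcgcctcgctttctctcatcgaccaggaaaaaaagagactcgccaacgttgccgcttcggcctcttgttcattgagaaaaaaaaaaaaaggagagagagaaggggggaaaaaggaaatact
Shorter forms of the Ets site were not counted. CGGAAG lay 62 bases upstream of the start in Dusp6, 17 in Spred1 and 43 in Spred2. Searched on both strands, it was in 3 of the 8 windows and in 13.6% of 32851 mouse windows of the same length. The longer site CCGGAAGT, which contains CGGAAG, was in 0 of 8 and in 2.88% of all. The other motifs searched on both strands were the cAMP response element TGACGTCA (0 of 8 and 1.55% of all), the AP-1 site TGANTCA (0 of 8 and 6.75%), the E-box CACGTG (0 of 8 and 6.02%), TATAAA (0 of 8 and 12.4%) and the GC-box GGGCGGGG (1 of 8, Spred3, and 16.1%). The windows of these genes had a median GC content of 62.2% against 52.4% for all windows, and a median of 20.5 CpG dinucleotides against 6. A match is a description of the letters and shows no binding.

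Levels below are normalised counts, given as library 1, 2 and 3, and mean ± SD (n = 3). Changes are log2 ratios of the value plus 1 with their SE, from limma fitted to all genes, with Benjamini-Hochberg adjusted p called below 0.05. The added 1 makes the log2 change of low genes smaller than that of the values themselves. In the Dox libraries, 9 of the 10 genes rose from mES to EBd2 and 0 fell, where 64.1% of 22141 genes changed (35.0% rose and 29.1% fell). The median log2 change was 1.76 for the 10 genes and 0.07 for all genes tested. Etv4 rose most, by log2 4.85 ± 0.13, followed by Dusp4 (4.27 ± 0.08), Dusp6 (3.69 ± 0.15) and Spry4 (2.81 ± 0.20). Spry2 did not pass the test. The libraries of both stages did not overlap for 8 of the 10 genes, against 69.2% of all genes tested. From EBd2 to EBd3, 4 of the 10 rose and 4 fell, where 46.4% of 22141 genes changed (22.0% and 24.4%), and the median log2 change was 0.12 for the 10 genes and -0.04 for all genes tested. Groups did not overlap for 7 of the 10, against 54.4% of all. From EBd3 to EBd4, 2 rose and 4 fell against 33.7% of 22141 genes (16.1% and 17.6%), with a median of -0.05 for the 10 genes and -0.01 for all genes tested, and groups did not overlap for 7 of the 10, against 42.9%. These shares include genes with means down to 1. Among genes with a mean of at least 10, larger shares changed: 78.2% into EBd2, 63.1% into EBd3 and 47.3% into EBd4.

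**Figure D1:**
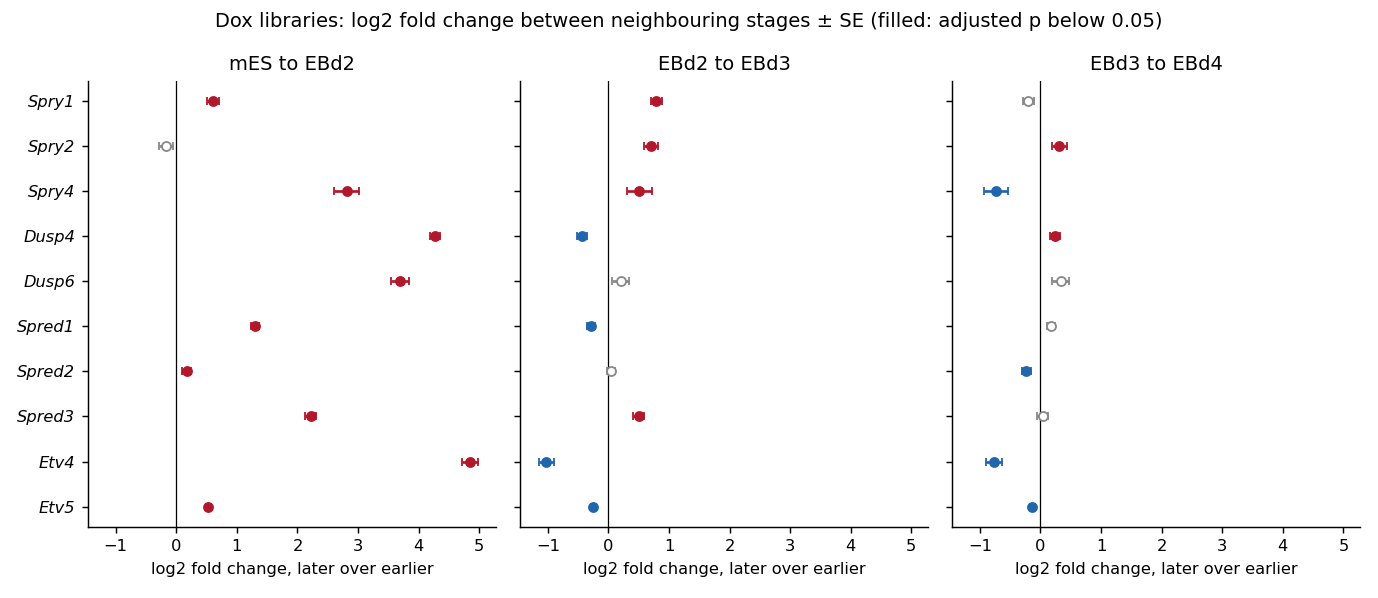
Log2 change of each gene between neighbouring stages in the Dox libraries, later over earlier (points, with SE as bars; x axis log2 fold change; filled points have an adjusted p below 0.05, red higher and blue lower). The first step holds the wide rises of Etv4 (4.85), Dusp4 (4.27) and Dusp6 (3.69), whereas Etv4 lies to the left of 0 in both later steps.

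With IAA in mES, 2 of the 10 genes rose and 5 fell, where 37.5% of 20865 genes changed (17.3% rose and 20.1% fell). The median log2 change was -0.16 for the 10 genes and -0.01 for all genes tested. Dox and IAA libraries did not overlap for 5 of the 10, against 45.8% of all genes tested. In EBd2, 7 rose and 1 fell against 30.1% of 22076 genes (13.4% and 16.7%), with a median of 0.32 for the 10 genes and -0.04 for all genes tested, and no overlap for 7 of the 10, against 41.9% of all. In EBd3, 4 rose and 0 fell against 10.5% of 21304 genes (4.22% and 6.32%), with a median of 0.16 for the 10 genes and -0.01 for all genes tested, and no overlap for 4 of the 10, against 26.9%. In EBd4, 2 rose and 5 fell against 10.3% of 21170 genes (4.69% and 5.57%), with a median of -0.30 for the 10 genes and -0.01 for all genes tested, and no overlap for 5 of the 10, against 28.5%. Among genes with a mean of at least 10, larger shares changed with IAA: 53.4% in mES, 42.4% in EBd2, 16.5% in EBd3 and 16.7% in EBd4. Dusp4 rose in all 3 embryoid body stages, Spry4 fell in mES and rose in EBd2 and EBd3, and Etv5 fell in every stage but EBd3. The EBd2 call of Etv5 was lost by edgeR and DESeq2.

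**Figure D2:**
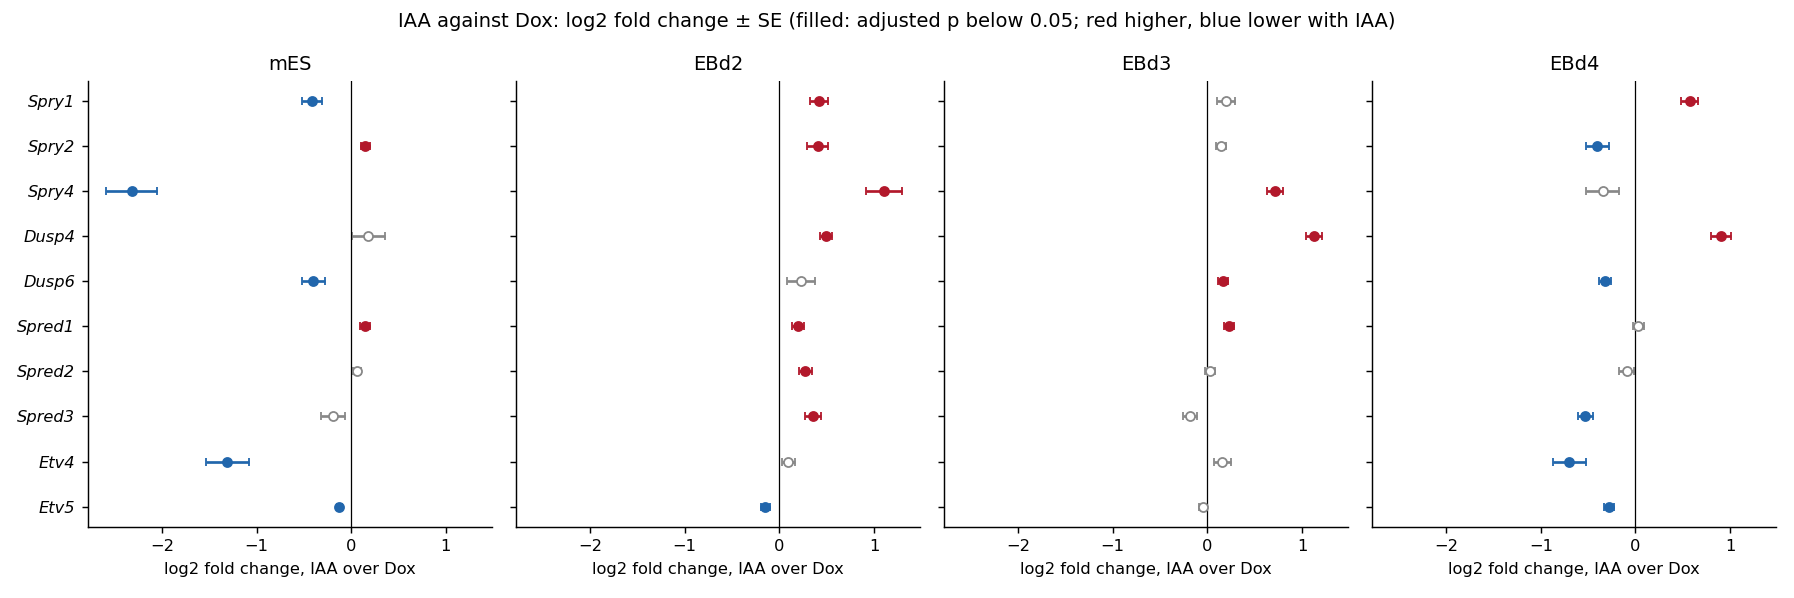
Log2 change with IAA against Dox for each gene (rows) at each stage (panels), with SE as bars and filled points where the adjusted p is below 0.05. Spry4 lies at -2.32 in mES and at 1.11 in EBd2, and Dusp4 lies right of 0 by 0.49 to 1.13 in the 3 embryoid body stages.

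The Sprouty genes encode membrane-associated proteins that dampen receptor signals to RAS. Spry4 (ENSMUSG00000024427, mm10 chr18:38586247-38601415, minus strand) fell in mES with IAA and rose in EBd2 and EBd3. In mES the Dox libraries held 34.4, 36.5 and 43.7 (38.2 ± 4.86) and the IAA libraries 4.88, 7.05 and 9.03 (6.99 ± 2.07), the latter from 5, 8 and 12 reads. Every IAA library was below every Dox library (log2 -2.32 ± 0.27, adjusted p = 3.2e-09). In EBd2 the Dox libraries held 198, 215 and 477 (296 ± 156) and the IAA libraries 573, 558 and 634 (588 ± 39.9). The third Dox library was far above the other two and still below every IAA library (log2 1.11 ± 0.19, adjusted p = 0.000148). In EBd3 the values were 361, 407 and 402 (389.9 ± 25.2) with Dox and 621, 555 and 759 (645 ± 104) with IAA, again without overlap (log2 0.71 ± 0.09, adjusted p = 1.66e-06). In EBd4 they were 281, 238 and 190.1 (237 ± 45.7) and 136, 192 and 235 (188 ± 49.2). These groups overlapped and the difference did not pass the test (log2 -0.35 ± 0.17, adjusted p = 0.233). Across the Dox stages Spry4 rose into EBd2 (log2 2.81 ± 0.20, adjusted p = 1.15e-11). It rose less into EBd3 (log2 0.51 ± 0.20, adjusted p = 0.0428) and fell into EBd4 (log2 -0.74 ± 0.20, adjusted p = 0.00674). The step into EBd3 lost its call without any 1 of EBd2 Dox 1, EBd2 Dox 2 and the 3 EBd3 Dox libraries (adjusted p from 0.0631 to 0.296). Without EBd2 Dox 3 it was log2 0.91, adjusted p = 3.85e-06. The step into EBd4 lost its call without EBd4 Dox 3 (log2 -0.59, adjusted p = 0.0511).

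Spry1 (ENSMUSG00000037211, chr3:37639947-37644598, plus strand) fell in mES and rose in EBd2 and EBd4. In mES it had 119.6, 109 and 127 (119 ± 8.95) with Dox and 87, 84.6 and 94.8 (88.8 ± 5.39) with IAA (log2 -0.41 ± 0.11, adjusted p = 0.00161). In EBd2 the values were 170.2, 203 and 172 (182 ± 18.7) and 233, 224 and 271 (243 ± 25.1) (log2 0.42 ± 0.10, adjusted p = 0.00216). In EBd4 they were 257, 270.4 and 289.6 (272 ± 16.3) and 455, 392 and 376 (407 ± 41.9) (log2 0.58 ± 0.09, adjusted p = 0.0011). The groups did not overlap in any of these 3 stages. In EBd3 they did, at 331, 312 and 297 (313 ± 17.1) and 409, 381 and 296 (362 ± 58.8), and the difference was not called (log2 0.20 ± 0.10, adjusted p = 0.214). A single library decided this: without EBd3 IAA 3 it was called (log2 0.33, adjusted p = 0.00759). Across the Dox stages Spry1 rose into EBd2 (log2 0.61 ± 0.09, adjusted p = 3.12e-06) and into EBd3 (log2 0.79 ± 0.09, adjusted p = 1.39e-07). The step into EBd4 was not called (log2 -0.20 ± 0.09, adjusted p = 0.0955). A gene of the TEC class, Gm42922, lies on the opposite strand over 710 exonic bases of Spry1 and had a mean of 0.918 normalised counts. Whether the counting used strand is not given in the sources used here.

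Spry2 (ENSMUSG00000022114, chr14:105891947-105896819, minus strand) rose by small steps in mES and EBd2 and fell in EBd4, and none of these calls held without each library. In EBd4 the Dox libraries held 1281, 1194 and 879 (1118 ± 212) and the IAA libraries 714, 848 and 961 (841 ± 124). The lowest Dox library lay within the range of the IAA libraries (log2 -0.40 ± 0.12, adjusted p = 0.0457). The call was lost without EBd4 Dox 1, EBd4 Dox 2, EBd4 IAA 1 or EBd4 IAA 2 (adjusted p from 0.145 to 0.267), and by DESeq2 (adjusted p = 0.21). In EBd2 the values were 459, 492 and 716 (556 ± 140.0) with Dox and 713, 672 and 783 (723 ± 56) with IAA (log2 0.40 ± 0.11, adjusted p = 0.0069). The third Dox library exceeded 2 of the 3 IAA libraries, and the call was lost without EBd2 Dox 1, EBd2 Dox 2 or EBd2 IAA 3 (adjusted p from 0.0551 to 0.0661) and by DESeq2 (adjusted p = 0.156). In mES it went from 613 ± 37.1 to 678 ± 23.7 (log2 0.15 ± 0.05, adjusted p = 0.0135), with a call lost without mES Dox 1, mES Dox 2 or mES IAA 3 (adjusted p from 0.0694 to 0.0928). In EBd3 it had 888 ± 12 and 981 ± 40.8, which did not pass (log2 0.14 ± 0.05, adjusted p = 0.0978). In the Dox libraries the step into EBd2 was not called for Spry2, unlike for the other 9 genes (log2 -0.17 ± 0.12, adjusted p = 0.228; without EBd2 Dox 3, log2 -0.36, adjusted p = 0.00187). Spry2 rose into EBd3 (log2 0.70 ± 0.12, adjusted p = 2.83e-05) and into EBd4 (log2 0.31 ± 0.12, adjusted p = 0.0456). The last call was lost without each of the 3 EBd3 Dox libraries, EBd4 Dox 1 or EBd4 Dox 2 (adjusted p from 0.0943 to 0.24), and without EBd4 Dox 3 it was log2 0.48, adjusted p = 0.00222.

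**Figure D3:**
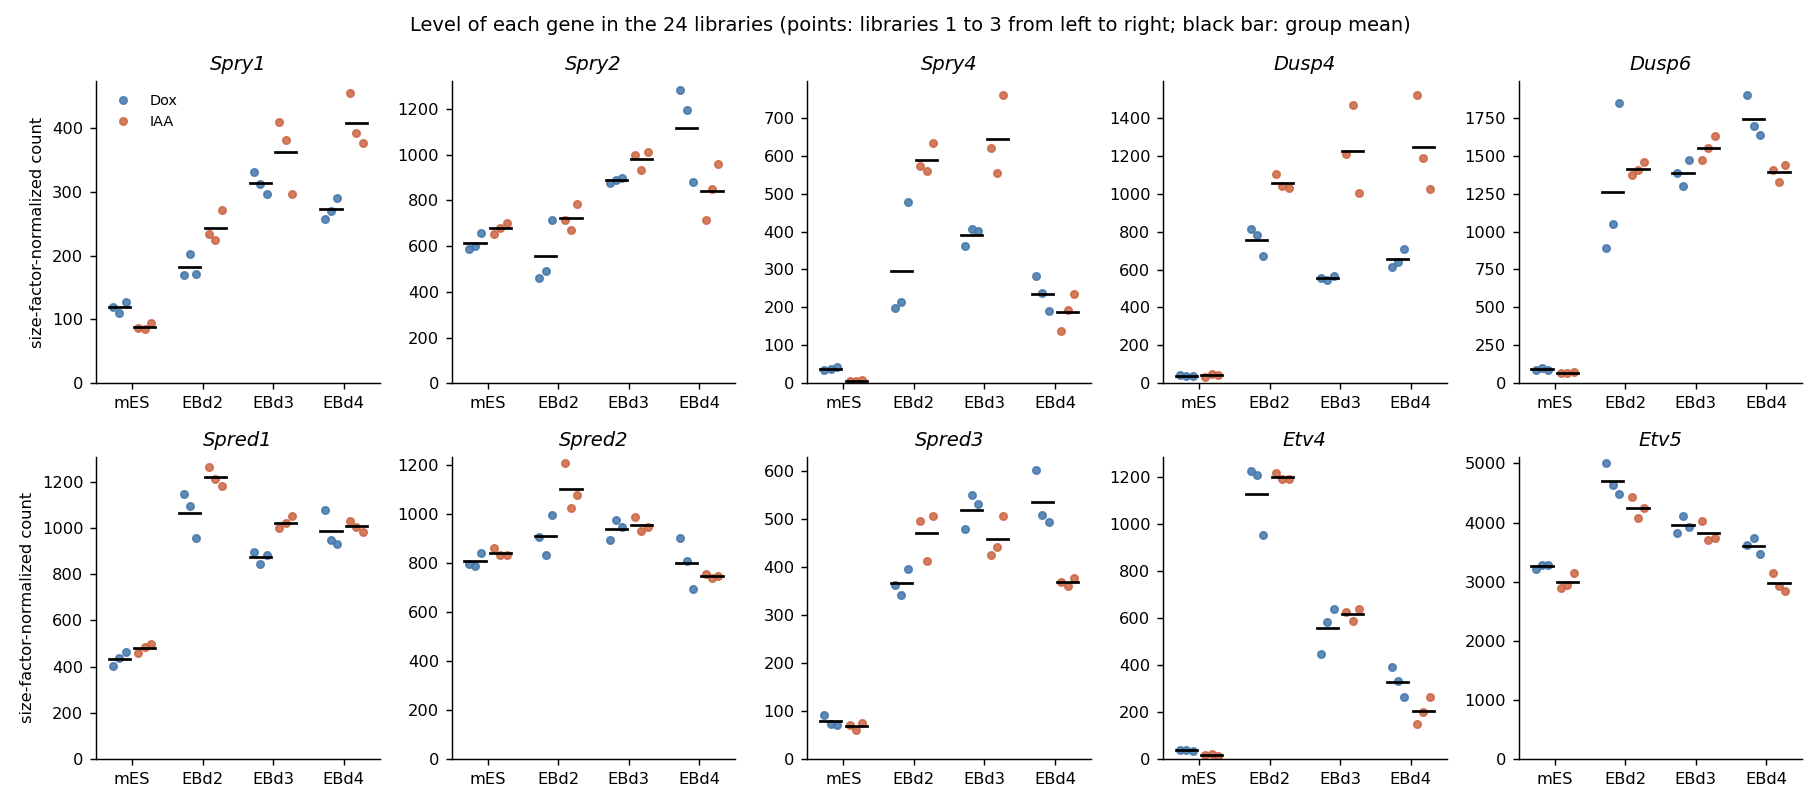
Normalised counts (y axis, linear from 0) of the 10 genes (panels) in every library by stage (x axis), with Dox libraries in blue, IAA libraries in orange and black bars at the group means. Spry4 sits between 4.88 and 9.03 in the mES IAA libraries and between 34.4 and 43.7 in the mES Dox libraries, and Dusp4 with IAA sits above all Dox libraries in EBd2, EBd3 and EBd4.

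The phosphatase genes Dusp4 and Dusp6 were called at different stages in part. Dusp4 (ENSMUSG00000031530, chr8:34807297-34819894, plus strand), whose product is nuclear, rose with IAA in every embryoid body stage. In EBd2 it had 813, 784 and 669.6 (755 ± 75.8) with Dox and 1106, 1043 and 1029 (1059 ± 41.3) with IAA (log2 0.49 ± 0.07, adjusted p = 7.93e-06). In EBd3 the values were 553, 543 and 569 (555 ± 13.1) and 1210.3, 1469 and 1004 (1228 ± 233) (log2 1.13 ± 0.08, adjusted p = 4.34e-10). In EBd4 they were 616, 639 and 711 (656 ± 49.6) and 1522, 1188 and 1027 (1246 ± 252) (log2 0.91 ± 0.11, adjusted p = 0.000171). No IAA library overlapped a Dox library in these 3 stages, and the 3 calls held without each library in turn. In mES the level was low in both groups, at 41.7, 36.5 and 36.2 (38.1 ± 3.07) and 35.2, 51.1 and 45.2 (43.8 ± 8.04), which overlapped and did not pass (log2 0.18 ± 0.17, adjusted p = 0.452). With Dox alone, Dusp4 rose into EBd2 (log2 4.27 ± 0.08, adjusted p = 8.03e-23) and fell into EBd3 (log2 -0.44 ± 0.08, adjusted p = 8.82e-05). It rose again into EBd4 (log2 0.24 ± 0.08, adjusted p = 0.0269), a call lost without EBd3 Dox 1, EBd3 Dox 2 or EBd4 Dox 3 (adjusted p from 0.0637 to 0.145).

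Dusp6 (ENSMUSG00000019960, chr10:99263231-99267489, plus strand), whose product is cytoplasmic and specific to ERK, fell with IAA in mES and EBd4 and rose by a small step in EBd3. In mES the values were 87.9, 99.9 and 89.2 (92.3 ± 6.59) with Dox and 64.5, 68.7 and 76 (69.7 ± 5.84) with IAA, without overlap (log2 -0.40 ± 0.12, adjusted p = 0.00693). That call was lost without mES Dox 2 (log2 -0.34, adjusted p = 0.052) and by DESeq2 (adjusted p = 0.0778). In EBd4 the values were 1901, 1693 and 1635 (1743 ± 139.8) and 1408, 1326 and 1441 (1392 ± 59.5), also without overlap (log2 -0.32 ± 0.06, adjusted p = 0.0037). The EBd4 call was lost in 1 fit of all 24 libraries (adjusted p = 0.091), and the authors' deposited table gives an adjusted p of 0.226 there. In EBd2 they were 894, 1049 and 1847 (1263 ± 512) and 1373, 1404 and 1462 (1413 ± 45). The third Dox library exceeded every IAA library and the other two lay below them, and the difference was not called (log2 0.23 ± 0.15, adjusted p = 0.259). Without that library it was called (log2 0.54, adjusted p = 6.95e-10). In EBd3 Dusp6 went from 1384 ± 86.1 to 1549 ± 79.9 (log2 0.16 ± 0.05, adjusted p = 0.0451), and the call was lost without EBd3 Dox 1, EBd3 Dox 2 or any of the 3 EBd3 IAA libraries (adjusted p from 0.0554 to 0.294). With Dox alone it rose into EBd2 (log2 3.69 ± 0.15, adjusted p = 9.2e-17). The step into EBd3 was not called (log2 0.20 ± 0.15, adjusted p = 0.274), but was without EBd2 Dox 3 (log2 0.51, adjusted p = 4.89e-06). The step into EBd4 was not called in the fit of the 12 Dox libraries (log2 0.33 ± 0.15, adjusted p = 0.0848), although every EBd4 library lay above every EBd3 one. It was called with only the 6 Dox libraries of both stages (log2 0.33, adjusted p = 5.02e-05) and by edgeR (adjusted p = 0.0349).

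The third EBd2 Dox library stood apart for several of these genes in opposite directions. It was the highest of its group for Dusp6, Spry2, Spry4, Spred2 and Spred3, and the lowest for Dusp4, Etv4, Spred1 and Etv5. Among the ligands it also held the most Fgf4, at 2956, 3037 and 3844 in the 3 Dox libraries, and the most Fgf15, at 107, 97.3 and 187. Without it the IAA changes of EBd2 were log2 1.51, adjusted p = 4.88e-18 for Spry4 and log2 0.60, adjusted p = 2.32e-09 for Spry2, Dusp6 gained a call and Spred1 lost one. For the other genes they were log2 0.38 for Spry1, 0.41 for Dusp4, 0.34 for Spred2, 0.41 for Spred3 and -0.18 for Etv5, all still called, and -0.02 for Etv4, which was not (adjusted p = 0.781).

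The Spred genes encode relatives of Sprouty that hold back RAF activation. Spred3 (ENSMUSG00000037239, chr7:29158829-29170411, minus strand) rose with IAA in EBd2 and fell in EBd4. In EBd2 it had 363, 342 and 396 (367 ± 27.2) with Dox and 495, 412 and 506 (471 ± 51.2) with IAA (log2 0.36 ± 0.08, adjusted p = 0.00186). In EBd4 it had 602, 507 and 494 (534 ± 59.3) and 368, 360.3 and 378 (369 ± 8.81) (log2 -0.53 ± 0.08, adjusted p = 0.00109). Neither pair of groups overlapped. The differences in mES (log2 -0.19 ± 0.13, adjusted p = 0.268) and EBd3 (log2 -0.19 ± 0.08, adjusted p = 0.128) were not called, the latter becoming called without EBd3 IAA 3 (log2 -0.26, adjusted p = 0.0203). Across Dox stages Spred3 rose into EBd2 (log2 2.22 ± 0.09, adjusted p = 3.5e-16) and EBd3 (log2 0.50 ± 0.09, adjusted p = 0.000103) and not into EBd4 (log2 0.04 ± 0.09, adjusted p = 0.801). Ggn lies on the opposite strand and shares 202 exonic bases with Spred3, at a mean of 9.75 normalised counts.

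Spred1 (ENSMUSG00000027351, chr2:117121374-117182279, plus strand) rose with IAA by small steps in mES, EBd2 and EBd3. In EBd3 it had 898, 843 and 885 (875 ± 28.6) with Dox and 999, 1020.1 and 1049.9 (1023 ± 25.7) with IAA, without overlap (log2 0.22 ± 0.05, adjusted p = 0.00639), a call lost without EBd3 Dox 2 (log2 0.20, adjusted p = 0.0682). In EBd2 it went from 1067 ± 99.5 to 1220.5 ± 42 (log2 0.20 ± 0.06, adjusted p = 0.0188), and the call was lost without EBd2 Dox 3 (log2 0.12, adjusted p = 0.0647), EBd2 IAA 1 (adjusted p = 0.0942) or EBd2 IAA 2 (adjusted p = 0.0592). In mES it went from 433 ± 31 to 479.7 ± 21.1 (log2 0.15 ± 0.06, adjusted p = 0.0332), and the call was lost without mES Dox 1, mES Dox 2, mES IAA 2 or mES IAA 3 (adjusted p from 0.0629 to 0.249). EBd4 showed no call (log2 0.03 ± 0.06, adjusted p = 0.82). Between Dox stages Spred1 rose into EBd2 (log2 1.30 ± 0.07, adjusted p = 2.56e-14) and fell into EBd3 (log2 -0.28 ± 0.07, adjusted p = 0.00147). The step into EBd4 was not called (log2 0.17 ± 0.07, adjusted p = 0.0591), but was without EBd4 Dox 3 (log2 0.21, adjusted p = 0.0381).

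Spred2 (ENSMUSG00000045671, chr11:19924375-20024026, plus strand) was the steadiest of the 10 genes, by the ratio of its highest to its lowest group mean, 1104 ± 95.1 in EBd2 IAA and 747 ± 9.42 in EBd4 IAA. It rose with IAA in EBd2, from 906, 835 and 996 (912 ± 81) to 1209, 1024 and 1078 (1104 ± 95.1) (log2 0.27 ± 0.07, adjusted p = 0.0038). The other stages gave no call, with log2 changes of 0.06 ± 0.04 in mES, 0.03 ± 0.06 in EBd3 and -0.09 ± 0.08 in EBd4. Its Dox steps were small: log2 0.17 ± 0.07, adjusted p = 0.0457 into EBd2, where the call was lost without mES Dox 1, mES Dox 2, EBd2 Dox 1 or EBd2 Dox 3 (adjusted p from 0.0783 to 0.229). The fall into EBd4 (log2 -0.23 ± 0.07, adjusted p = 0.0155) was lost without EBd3 Dox 2, EBd3 Dox 3 or EBd4 Dox 3 (adjusted p from 0.0514 to 0.149).

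The Ets factors differed in level and in pattern. Etv4 (ENSMUSG00000017724, chr11:101769742-101785371, minus strand) fell with IAA in mES, from 39, 40 and 35.3 (38.1 ± 2.45) to 15.6, 19.4 and 10.5 (15.2 ± 4.44). Every IAA library was below every Dox library (log2 -1.31 ± 0.23, adjusted p = 1.17e-05). It did not pass in EBd2, at 1130.0 ± 152 and 1199.7 ± 14.8 (log2 0.10 ± 0.07, adjusted p = 0.344), or in EBd3, at 558 ± 98.3 and 616 ± 25.6 (log2 0.16 ± 0.09, adjusted p = 0.283). In EBd4 it fell, from 391, 330.2 and 262 (328 ± 64.6) to 149.7, 198 and 265 (204 ± 57.9) (log2 -0.70 ± 0.17, adjusted p = 0.0173). The highest IAA library there was just above the lowest Dox library, and the call was lost without EBd4 Dox 1, EBd4 Dox 2, EBd4 IAA 1 or EBd4 IAA 2 (adjusted p from 0.0868 to 0.155) and by DESeq2 (adjusted p = 0.113). In the Dox libraries Etv4 peaked in EBd2, at 1226, 1209 and 955 (1130.0 ± 152). From there it fell into EBd3 (log2 -1.02 ± 0.13, adjusted p = 3.2e-07) and EBd4 (log2 -0.77 ± 0.13, adjusted p = 3.79e-05).

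Etv5 (ENSMUSG00000013089, chr16:22381309-22439719, minus strand) was the most abundant of the 10 genes per length of exon in all 8 groups. Its mean per kilobase of exon ran from 725 normalised counts in EBd4 IAA to 1148 in EBd2 Dox, where Etv4 had 364. The lowest group mean of any of the 10 genes was that of Spry4 in mES IAA, at 1.47 per kilobase. Etv5 fell with IAA in mES, from 3221, 3284 and 3287 (3264 ± 36.8) to 2899, 2949.8 and 3139.8 (2996 ± 127) (log2 -0.12 ± 0.03, adjusted p = 0.000473). It fell in EBd4, from 3613, 3737 and 3471 (3607 ± 133) to 3148, 2935 and 2835 (2973 ± 159.9) (log2 -0.28 ± 0.05, adjusted p = 0.00225). Neither pair overlapped. In EBd2 it went from 4710.2 ± 266 to 4254 ± 174 (log2 -0.15 ± 0.05, adjusted p = 0.0232), a call lost without EBd2 Dox 1, EBd2 Dox 2, EBd2 IAA 2 or EBd2 IAA 3 (adjusted p from 0.0511 to 0.169). It was also lost with TMM scaling in limma (adjusted p = 0.0647), by edgeR (adjusted p = 0.0665) and by DESeq2 (adjusted p = 0.0752). The authors' deposited table gives an adjusted p of 0.00948 there. EBd3 showed no call (log2 -0.05 ± 0.04, adjusted p = 0.502). Across the Dox stages Etv5 rose into EBd2 (log2 0.53 ± 0.04, adjusted p = 3.73e-11) and fell into EBd3 (log2 -0.25 ± 0.04, adjusted p = 1.54e-05) and EBd4 (log2 -0.13 ± 0.04, adjusted p = 0.0141). The last call was lost without EBd3 Dox 2 (adjusted p = 0.098) or EBd4 Dox 3 (adjusted p = 0.0778).

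In EBd4 the spread of Spry2, Spry4 and Etv4 between libraries went with that of T, a marker of the primitive streak. T, which encodes the streak factor Brachyury, had 2091, 1602 and 826 normalised counts in the Dox libraries and 39.8, 322 and 1556 in the IAA libraries. The Dox library lowest in T was also the lowest in Spry2, Spry4 and Etv4, and the IAA library highest in T was the highest in all 3. The same held for Dusp6 and Spred3, whose other IAA libraries ran against T. Etv5, Spred1 and Spred2 were lowest in that Dox library too, but highest in the IAA library with the least T. The ligand gene Fgf8 followed the order of T within the IAA libraries, at 75.8, 197 and 540.2, against 1049, 1067 and 681 with Dox. Fgf4 had 399, 459 and 550.2 with Dox and 1399.7, 879 and 629 with IAA and was highest in the IAA library with the least T. Spry1 and Dusp4, which rose, ran in the inverse order of T within both groups, with Spry1 at 257, 270.4 and 289.6 with Dox and 455, 392 and 376 with IAA. Dusp4 had 616, 639 and 711 and 1522, 1188 and 1027 in the same libraries. The 5 streak and mesoderm markers summed to 1275 to 3108 with Dox and 136.5 to 2236 with IAA, none of them at 0 in either group, and 1 of the 5 fell (log2 -1.74 ± 0.48, adjusted p = 0.0316 for Eomes). Of the naive markers in EBd4, 3 of 7 rose and 2 fell, with Esrrb higher (log2 0.76) and Nanog lower (-0.33). Among all genes tested in EBd4, 4.69% rose and 5.57% fell. The primed marker Fgf5, 1 of 4, fell there, 1 of 4 neuroectoderm markers rose (Pax6, 0.82), and 1 of 4 fibroblast markers fell (Col1a2, log2 -1.07 ± 0.33, adjusted p = 0.0493). The 4 fibroblast markers tested had a median log2 change of 0.29, against the direction of Col1a2. The 6 fibroblast markers listed summed to 229.2 to 401.6 with Dox and 366.5 to 536.4 with IAA. The part of all these markers in the results of EBd4 was not tested.

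In EBd2 several marker lists moved with IAA, where 13.4% of all genes tested rose and 16.7% fell. All 4 neuroectoderm markers rose, with sums of 1160 to 1202 with Dox and 2282 to 2321 with IAA and none at 0. Of the 4 formative or primed epiblast markers 3 rose, namely Fgf5 (log2 0.74), Pou3f1 (0.47) and Dnmt3b (0.42). Their sums went from 2.357e+04 to 2.526e+04 with Dox and from 3.137e+04 to 3.321e+04 with IAA. Of the 7 naive markers 1 rose (Sox2, 0.67) and 3 fell, namely Esrrb (-1.10), Nanog (-1.02) and Tfcp2l1 (-0.42), whereas the sums overlapped (1.191e+04 to 1.269e+04 and 1.215e+04 to 1.276e+04). Among 5 streak and mesoderm markers T fell (-1.57), and among 5 of primitive endoderm Gata4 rose (0.40). Of the 4 fibroblast markers tested 2 fell, Dcn (-1.98) and Thy1 (-0.50). The 6 fibroblast markers summed to 164.3 to 211.7 with Dox and 106.7 to 116.6 with IAA, with Lum and Postn at 0 with IAA. In EBd3, Sox2 (0.22) and the neuroectoderm marker Tubb3 (0.57) rose, and Nanog (-0.49) and Dcn (-1.48) fell. In mES 6 of 7 naive markers rose and 1 fell, where 17.3% of all genes tested rose and 20.1% fell. Of 3 formative or primed epiblast markers tested there, 2 rose and 1 fell. The 4 listed summed to 1223 to 1352 with Dox and 555.9 to 628 with IAA, with Fgf5 at 0 in both. Of 4 neuroectoderm markers 2 rose and 1 fell, and of 4 streak and mesoderm markers tested 0 rose and 1 fell. Of 5 primitive endoderm markers 0 rose and 0 fell, and of 2 fibroblast markers tested 0 rose and 1 fell. The part of these lists in the results was not tested.

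The IAA effect itself was compared between neighbouring stages in a fit of all 24 libraries. From mES to EBd2, 5 of the 10 genes had a more positive effect and 0 a more negative one, where 16.3% of 22019 genes differed (9.73% more positive and 6.61% more negative). The largest of these 10 differences was that of Spry4 (log2 3.43 ± 0.30, adjusted p = 3.72e-10), which changed from a fall to a rise. Etv4 (log2 1.40 ± 0.23, adjusted p = 3.09e-05) and Spry1 (log2 0.83 ± 0.15, adjusted p = 8.78e-05) followed, then Dusp6 (log2 0.63 ± 0.18, adjusted p = 0.0137) and Spred3 (log2 0.55 ± 0.14, adjusted p = 0.0051). From EBd2 to EBd3, 2 of 10 differed against 7.22% of 22019 genes (2.92% and 4.29%): the effect on Dusp4 was more positive (log2 0.64 ± 0.17, adjusted p = 0.0162) and that on Spred3 more negative (log2 -0.54 ± 0.14, adjusted p = 0.0133). The Dusp4 difference lost its call without EBd2 Dox 1 (adjusted p = 0.0539) or EBd3 IAA 2 (adjusted p = 0.0708). From EBd3 to EBd4, 4 of 10 had a more negative effect against 4.93% of 22019 genes (2.71% more positive and 2.23% more negative), namely Spry4 (log2 -1.06 ± 0.30, adjusted p = 0.0363), Etv4 (log2 -0.86 ± 0.23, adjusted p = 0.0257), Spry2 (log2 -0.55 ± 0.16, adjusted p = 0.0446) and Etv5 (log2 -0.23 ± 0.06, adjusted p = 0.0319). Each of these 4 lost its call without several single libraries of EBd3 and EBd4, with the largest adjusted p at 0.115 for Spry4 and 0.155 for Spry2 (both without EBd4 Dox 1), 0.101 for Etv4 (without EBd3 Dox 1) and 0.104 for Etv5 (without EBd3 IAA 1). Without EBd2 Dox 3, the effect also differed from mES to EBd2 for Spry2 (log2 0.45, adjusted p = 0.0186) and Spred2 (log2 0.28, adjusted p = 0.0456). Without it, 6 genes differed from EBd2 to EBd3, the added ones being Spry2 (log2 -0.46, adjusted p = 0.0332), Spry4 (log2 -0.79, adjusted p = 0.0402), Dusp6 (log2 -0.38, adjusted p = 0.0174) and Spred2 (log2 -0.31, adjusted p = 0.0415). The Dusp6 difference from mES to EBd2 was lost without EBd2 Dox 1 (adjusted p = 0.0812), EBd2 Dox 2 (adjusted p = 0.0581), by edgeR (adjusted p = 0.204) and by DESeq2 (adjusted p = 0.142).

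The 10 genes did not share 1 pattern. Over the 24 libraries, the Pearson correlation of log2 levels had a median of 0.673 over the 45 pairs of genes and ranged from -0.165 to 0.986. Dusp6 and Spred3 were the most alike (0.986), and Spry2 and Etv5 the least (-0.165). The 2 genes of a pair are read in the same libraries, and the points include the step from mES to embryoid bodies. Among the 10587 other genes with a mean of at least 50 normalised counts, those whose 8 group means were most like Spry4 were Pdzd4 (r = 0.993), Gldc (0.992), Rida (0.989), Tgif2 (0.989) and Igfbp4 (0.986). Those most like Dusp6 were Pcdh1, St8sia3, Zfp608, Cfap300 and Fgf5, each at 0.998. Those most like Etv4 were Cpxm1 (0.997), Cyyr1 (0.995), Dnmt3a, Zfp612 and Tmem54 (0.994 each). The 8 group means also include the step from mES to embryoid bodies. A high r over them therefore does not show a like course within the embryoid body stages.

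The rest of the pathway was followed by 6 lists of other genes, from ligands to targets. Of all genes tested in mES, 17.3% rose with IAA and 20.1% fell. With IAA in mES, 3 of 8 rose and 1 fell among the FGF ligands: Fgf4 (log2 0.21), Fgf2 (1.38) and Fgf15 (1.31) rose. Among receptors, 1 of 6 rose and 1 fell, Fgfr1 being higher by 0.43 and Fgfrl1 lower (-0.35). Among adaptors that join receptors to RAS, 6 of 8 rose and 0 fell. In the kinase cascade 5 of 11 rose and 5 fell, with lower Mapk3, which encodes ERK1 (-0.42). Among the other negative regulators 2 of 12 rose and 4 fell: the phosphatase genes Dusp9 (-0.56) and Dusp7 (-0.58) fell beside Dusp6, and Errfi1, which encodes an inhibitor of EGF receptors, rose (0.54). Among the other ERK target and Ets genes 4 of 13 rose and 2 fell.

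In EBd2, 4 of 10 rose and 1 fell among the ligands, with Fgf5 (0.74) and Fgf4 (0.47) higher and Fgf1 lower (-1.35). Of all genes tested in EBd2, 13.4% rose and 16.7% fell. Of the receptors 1 of 6 rose and 1 fell, of the adaptors 5 of 8 rose and 2 fell, and of the cascade 2 of 11 rose and 3 fell. Of the other negative regulators 3 of 13 rose and 2 fell, and of the other targets 2 of 14 rose and 3 fell. In EBd3, 0 of 10 ligands rose and 3 fell, namely Fgf8 (-1.34), Fgf15 (-0.74) and Fgf1 (-1.04). Of all genes tested in EBd3, 4.22% rose and 6.32% fell. Of 5 receptors none was called by limma, edgeR or DESeq2, with 1 at an unadjusted p below 0.05 in limma. Of the adaptors 2 of 8 rose and 1 fell, with Frs2 (0.25) and Shc1 (0.24) higher and Gab1 lower (-0.19), and of the cascade 0 of 11 rose and 1 fell. Of the other targets there 0 of 14 rose and 2 fell, and of the other negative regulators 0 of 13 rose and 1 fell. In EBd4, 1 of 10 rose and 3 fell among ligands, with Fgf4 higher (0.98) and Fgf8 (-2.18) and Fgf5 (-0.67) lower. Of all genes tested in EBd4, 4.69% rose and 5.57% fell. Of the receptors 1 of 6 rose and 0 fell, the riser being Fgfr2 (log2 1.26 ± 0.14, adjusted p = 0.000142). Of the adaptors 2 of 8 rose and 0 fell, with Gab1 (0.43) and Sos1 (0.30) higher. Of the 11 cascade genes none was called by limma, edgeR or DESeq2, with 1 at an unadjusted p below 0.05 in limma. Of the other targets 1 of 14 rose and 2 fell, with the immediate early gene Fos higher (1.46) and Etv1 (-0.63) and Gabpa (-0.19) lower. Of the other negative regulators 2 of 13 rose and 2 fell, with Il17rd, which encodes the FGF receptor antagonist Sef, lower (-0.77).

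**Figure D4:**
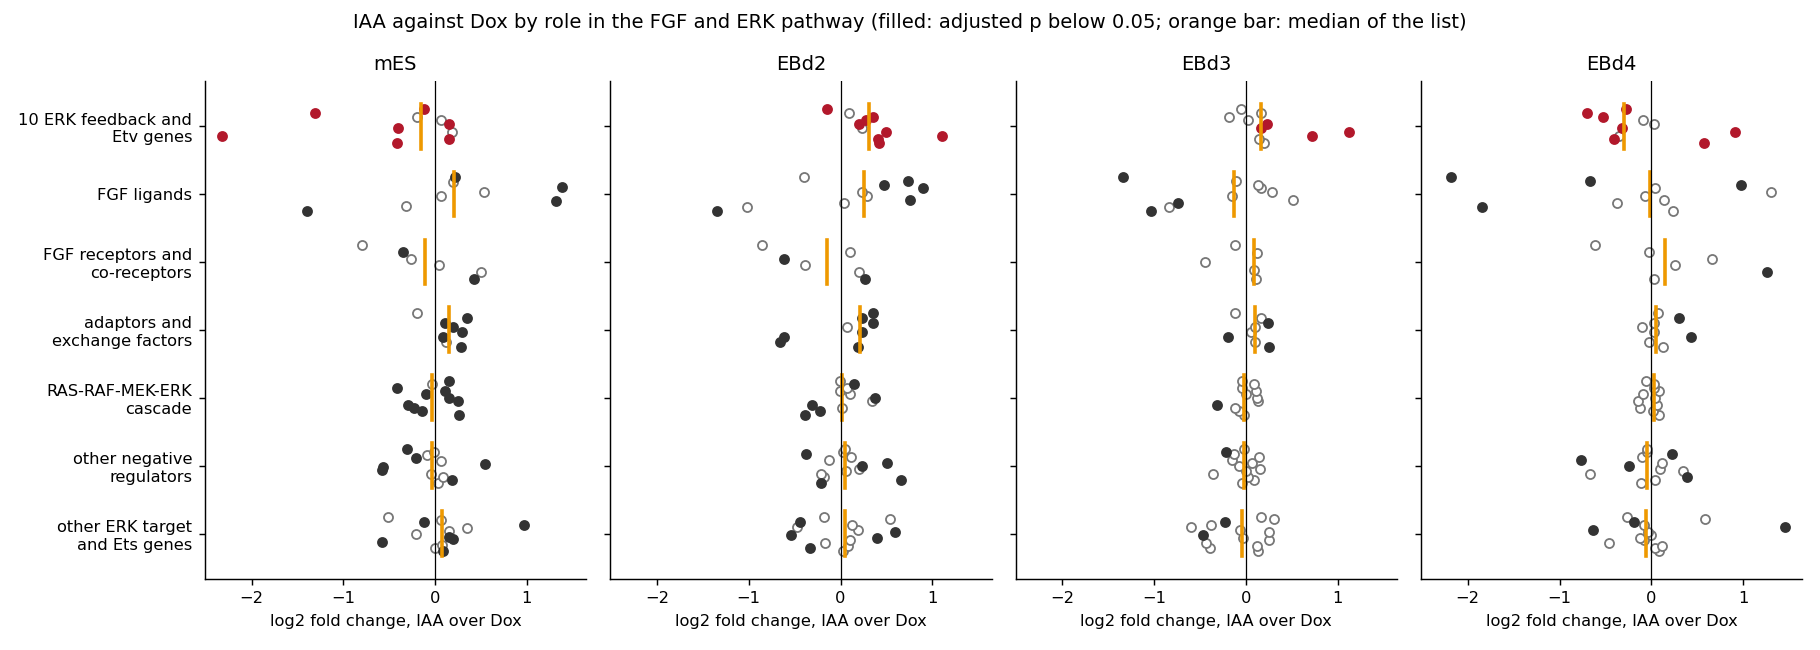
Log2 change with IAA against Dox (x axis) at each stage (panels) for the 10 genes and the 6 other pathway lists (rows), 1 point a gene, filled where the adjusted p is below 0.05, with orange bars at each list's median. The 10 genes have 7 filled points right of 0 and 1 left of it in EBd2, and 2 right and 5 left in EBd4.

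In the Dox libraries from mES to EBd2, 7 of 13 other negative regulators rose and 1 fell, and 6 of 14 other targets rose and 7 fell. Of all genes tested in that step, 35.0% rose and 29.1% fell. Egr1, an immediate early target of ERK, rose by log2 4.83 and the Ets gene Etv1 by 3.47, whereas the Ets repressor gene Erf, whose product ERK inactivates, fell (-1.52). Fgf5, at 0 in every mES library, had 357, 383 and 469 normalised counts in EBd2 Dox. Fgf4 fell (-1.14). Of the receptors 4 of 6 rose and 1 fell, with Fgfr2 rising by 4.49.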

How the data were processed

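RNA-seq of 24 libraries, 3 for each of 8 groups, was analysed. The submitters' processing notes name the build mm10 and the tools STAR 2.5.3a (an aligner), featureCounts 1.5.2 (a counter of reads in genes) and DESeq2, whose version is not given in the sources used here. The deposited values are a signal on the count scale: counts that the authors divided by 1 size factor a library. Multiplied by that factor, 100% of positive values in each library were whole reads (within 1e-06), which gave the depths and the count tests. On these reads edgeR called 7932 genes with IAA in mES, 6680 in EBd2, 2301 in EBd3 and 2192 in EBd4.

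The authors' deposited table of comparisons gives, per stage, a log2 fold change and an adjusted p-value. Its score column, named as DESeq2 names its test statistic per the file headers, was not used, and the table served only for the calls printed from it.

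Genes with a mean of at least 1 normalised count over the libraries of a fit were tested on log2(value + 1) with limma 3.58.1 (trend), two-sided, with Benjamini-Hochberg adjustment over all genes tested. IAA was compared with Dox in the 6 libraries of a stage, neighbouring stages in the 12 Dox libraries, and the IAA effect between neighbouring stages in all 24. The procedure was run on simulated counts with the same dispersion for every gene and no outlying library. That setting is simpler than these data. edgeR 4.0.16 and DESeq2 1.42.0 on whole reads, other constants (0.5 and 5), other filters (no filter, a mean of at least 10), TMM scaling, other sets of libraries in a fit, a replicate block and leaving out each library were tried.

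Replicate numbers were not used to pair the libraries in the main fits, as given in the closing section. Gene positions are those of GENCODE M21 (mm10). In the pathway lists, genes are named from the 3 smallest adjusted p-values of a list in a comparison. The 10 genes, the lists, the markers and the motifs were chosen with earlier results of these data known.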

Additional observations from a re-analysis of the deposited data

Results flagged for a closer look

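The test of the difference in IAA effect between neighbouring stages, limma over all 24 libraries, picked out 11 results. From mES to EBd2 the effect became more positive for Spry4 (log2 3.43 ± 0.30, adjusted p = 3.72e-10), Etv4 (1.40 ± 0.23, adjusted p = 3.09e-05), Spry1 (0.83 ± 0.15, adjusted p = 8.78e-05), Dusp6 (0.63 ± 0.18, adjusted p = 0.0137) and Spred3 (0.55 ± 0.14, adjusted p = 0.0051). From EBd2 to EBd3 it became more positive for Dusp4 (log2 0.64 ± 0.17, adjusted p = 0.0162) and more negative for Spred3 (-0.54 ± 0.14, adjusted p = 0.0133). From EBd3 to EBd4 it became more negative for Spry4 (log2 -1.06 ± 0.30, adjusted p = 0.0363), Etv4 (-0.86 ± 0.23, adjusted p = 0.0257), Spry2 (-0.55 ± 0.16, adjusted p = 0.0446) and Etv5 (-0.23 ± 0.06, adjusted p = 0.0319). The Dusp6 difference was not called by edgeR (adjusted p = 0.204) or DESeq2 (adjusted p = 0.142). No rule of these flags searched groups of 3 libraries for a library far from the others. Fits without each library in turn are given with the results.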

How the results depend on the processing

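Over the 10 comparisons, 1680 refits of single genes were made. Of these, 1509 kept their direction and their side of the threshold, 133 lost a call, 19 gained one and 19 turned sign, all of the last for genes not called. For IAA against Dox, calls that held under every alternative run were those of Spry1, Spry4, Etv4 and Etv5 in mES. In EBd2 they were Spry1, Spry4, Dusp4, Spred2 and Spred3, in EBd3 Spry4 and Dusp4, and in EBd4 Spry1, Dusp4, Spred3 and Etv5. In Dox, the calls into EBd2 held for all called genes but Spred2. Those into EBd3 held for Spry1, Spry2, Dusp4, Spred1, Spred3, Etv4 and Etv5, and into EBd4 only for Etv4. For the IAA effect they held for Spry1, Spry4, Spred3 and Etv4 from mES to EBd2, and for Spred3 from EBd2 to EBd3. With IAA in mES, DESeq2 called 4 of the 10 genes in place of 7 (and 5542 of all genes in place of 7821), and leaving out 1 library gave 4 to 7, with 4 without mES Dox 2. In EBd3 leaving out 1 library gave 2 to 5 in place of 4, with 2 without EBd3 Dox 2. For EBd3 to EBd4 in Dox it gave 2 to 5 in place of 6, against 8 with only the 6 Dox libraries of both stages, 8 by edgeR and 4 by DESeq2. For the IAA effect it gave 1 to 6 from EBd2 to EBd3 in place of 2, and 0 to 4 from EBd3 to EBd4 in place of 4. That last count was 0 with no filter on low values and 2 by DESeq2. Sign turns on other settings were at 0.00: Etv5 from mES to EBd2 with TMM scaling (0.00) and edgeR (0.00), and Dusp6 from EBd2 to EBd3 by edgeR (0.00) and DESeq2 (0.00). Leaving out 1 library turned the sign of these uncalled log2 values: with IAA, Etv4 in EBd2 (-0.02 to 0.16), Spred2 in EBd3 (-0.01 to 0.06) and Spred1 in EBd4 (-0.01 to 0.10). In Dox they were Dusp6 (-0.01 to 0.51) and Spred2 (-0.02 to 0.11) from EBd2 to EBd3, and Spred3 from EBd3 to EBd4 (-0.05 to 0.09). For the IAA effect they were Etv5 (-0.06 to 0.02) and Spred1 (-0.03 to 0.11) from mES to EBd2, and Dusp6 (-0.38 to 0.14), Spred1 (-0.03 to 0.10) and Etv4 (-0.08 to 0.18) from EBd2 to EBd3. Among all genes, 2245 were called in EBd3 against 1295 by DESeq2 and 1202 to 2613 with 1 library left out. In EBd4, 2173 were called against 1365 with the replicate block, 3425 in 1 fit of all 24 libraries and 776 to 2039 with 1 library left out. From EBd3 to EBd4 the IAA effect differed for 1086 genes, against 721 with no filter, 499 in the 12 libraries of both stages and 552 to 1358 with 1 library left out. The cause of these changes was not tested.

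Same-numbered Dox and IAA libraries did not deviate together (r from -0.180 to 0.094), and the main fits left the replicate numbers out. With 3 libraries a group this does not show whether they were prepared in pairs, which the labels do not say. With the replicate block, 5 of the 10 genes were called in EBd4 in place of 7, as Spry2 (adjusted p = 0.0979) and Etv4 (0.0518) lost their calls, and Spred2 from mES to EBd2 (0.0584) and Spry2 from EBd3 to EBd4 in Dox (0.0584) lost theirs. With 5 reads in the lowest library, Spry4 in mES IAA is the level most limited by depth.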

Other observations

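The authors' deposited table calls a gene changed at an adjusted p below 0.05 and a log2 change beyond 1 in either direction. Of the 40 values it holds for these 10 genes over 4 stages, 3 were called: Spry4 (log2 -2.42) and Etv4 (-1.35) lower with IAA in mES, and Dusp4 (1.15) higher in EBd3. A further 17 of the 40 had an adjusted p below 0.05 in that table and a smaller change. The shares of all genes that the table calls, or holds below 0.05, were not counted here. These counts therefore stand without a comparison to all genes. For 6 values that limma called here, the authors' deposited table has an adjusted p above 0.05: Spry4 in EBd3 (0.0673), Dusp6 in mES (0.148), EBd3 (0.642) and EBd4 (0.226), Spry2 in mES (0.4995) and Spred1 in mES (0.125). Dusp6 thus passes at no stage of that table, where its adjusted p in EBd2 is 0.557.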
